A study of Homo sapiens with 6 samples.

Results

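The genes of nuclear export, import and the nuclear pore were examined in maps of R-loops, structures made of an RNA-DNA hybrid and a displaced DNA strand. Members were the protein-coding genes with the symbol XPO, IPO, KPNA, KPNB, TNPO or NUP followed by a number, together with RAN, RANBP1, RANBP2, RANGAP1, RCC1, CSE1L, TPR and NXF1. This gave 52 of 19821 protein-coding genes in the RefSeq annotation of GRCh38. XPO1 was among them by name, since the study concerns export of R-loops by XPO1 and DDX1. The rule reads gene symbols only.

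The cells were IMR90, a human embryonic lung fibroblast line, in 3 states, with 1 library and 1 peak list each. Senescent cells carried ectopic Ras, described as oncogenic, although the labels do not name the construct. Quiescent cells were starved, and proliferating cells carried a control vector. All were of wild-type genotype and were cultured in 2% oxygen. R-loops were mapped with MapR, in which inactive RNase H tethers micrococcal nuclease (MNase) to RNA-DNA hybrids and the released DNA is sequenced. Libraries made with the background enzyme GST-MNase are not analysed here. The senescent list held 85564 peaks over 54.1 Mb, the quiescent list 9736 peaks over 4.12 Mb and the proliferating list 101802 peaks over 85.4 Mb. Read depth is unknown, so fewer R-loops and a weaker library cannot be told apart. With 1 library per state there is no replicate spread and no test between states, and each comparison describes these libraries only.

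Large molecules cross the nuclear envelope through pores built of nucleoporins. RCC1, held on chromatin, loads the small GTPase RAN with GTP in the nucleus, and RANGAP1 with RANBP1 discharges it in the cytoplasm. Importins release their cargo when they meet RAN-GTP in the nucleus, and exportins carry cargo out together with RAN-GTP. XPO1 is the main exportin for proteins with a leucine-rich export signal, whereas bulk mRNA leaves through NXF1, which does not use RAN.

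Peaks lay over or beside the transcription start in most of these genes, and 7 stretches of DNA show the cases on which the results turn. Each is the run of 250 bases before a RefSeq start in GRCh38.p14, written 5′ to 3′ on the strand of the gene. The XPO1 stretch was fully under a peak in senescent and in proliferating cells. The stretches of RAN, NUP133 and NXF1 and that of the first RCC1 start lay fully under a peak in proliferating cells and under none in senescent or quiescent cells. That of the second RCC1 start, 12183 bp further into the gene, was fully covered in all 3 states, and that of NUP210 in none. Capitals mark matches to 8 promoter motifs named after the sequences.
XPO1, chr2:61538357-61538606, minus strand: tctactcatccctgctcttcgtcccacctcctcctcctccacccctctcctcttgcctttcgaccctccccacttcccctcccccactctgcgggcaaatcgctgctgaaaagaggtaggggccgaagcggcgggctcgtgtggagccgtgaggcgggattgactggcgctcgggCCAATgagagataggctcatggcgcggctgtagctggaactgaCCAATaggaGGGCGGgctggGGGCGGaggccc
RAN, chr12:130871816-130872065, plus strand: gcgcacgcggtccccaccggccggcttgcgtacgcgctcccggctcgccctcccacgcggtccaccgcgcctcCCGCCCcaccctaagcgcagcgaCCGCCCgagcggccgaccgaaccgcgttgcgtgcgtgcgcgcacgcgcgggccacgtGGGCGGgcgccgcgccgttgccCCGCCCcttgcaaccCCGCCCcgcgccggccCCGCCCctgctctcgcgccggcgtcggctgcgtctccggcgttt
RCC1 first start, chr1:28505793-28506042, plus strand: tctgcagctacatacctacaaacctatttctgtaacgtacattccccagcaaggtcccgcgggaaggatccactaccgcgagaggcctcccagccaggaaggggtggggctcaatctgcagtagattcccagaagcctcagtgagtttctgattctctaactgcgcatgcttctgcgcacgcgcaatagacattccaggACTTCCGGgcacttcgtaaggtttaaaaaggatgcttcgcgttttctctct
RCC1 second start, chr1:28517976-28518225, plus strand: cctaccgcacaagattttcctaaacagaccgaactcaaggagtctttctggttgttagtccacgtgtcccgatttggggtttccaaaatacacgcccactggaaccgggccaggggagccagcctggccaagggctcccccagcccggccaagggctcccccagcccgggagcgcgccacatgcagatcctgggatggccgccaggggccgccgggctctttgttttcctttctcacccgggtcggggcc
NUP133, chr1:229508342-229508591, minus strand: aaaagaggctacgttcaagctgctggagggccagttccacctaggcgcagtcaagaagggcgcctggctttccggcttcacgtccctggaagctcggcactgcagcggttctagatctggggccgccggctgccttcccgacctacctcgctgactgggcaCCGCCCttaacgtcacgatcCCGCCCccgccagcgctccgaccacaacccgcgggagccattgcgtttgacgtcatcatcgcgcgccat
NXF1, chr11:62805441-62805690, minus strand: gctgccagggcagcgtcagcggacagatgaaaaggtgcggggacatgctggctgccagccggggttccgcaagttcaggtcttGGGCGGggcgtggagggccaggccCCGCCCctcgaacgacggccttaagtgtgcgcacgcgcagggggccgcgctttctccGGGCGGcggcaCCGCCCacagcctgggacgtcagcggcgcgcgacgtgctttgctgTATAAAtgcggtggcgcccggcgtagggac
NUP210, chr3:13420323-13420572, minus strand: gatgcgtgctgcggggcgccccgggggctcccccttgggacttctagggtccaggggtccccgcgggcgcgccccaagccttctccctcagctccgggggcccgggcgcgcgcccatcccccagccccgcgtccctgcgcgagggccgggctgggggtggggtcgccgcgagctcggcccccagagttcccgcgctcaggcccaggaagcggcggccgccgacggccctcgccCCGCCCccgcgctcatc

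The motifs were searched on both strands from 250 bases before to 50 bases after the start. They were the TATA box (TATAAA), the CCAAT box (its name gives its letters), the GC box (GGGCGG), an ETS-type motif (CCGGAAGT), the palindromic motif of NRF1, E2F-type motifs spelt TTTCGCGC or TTTGGCGC, and a YY1-type motif. Both E2F-type spellings were counted apart, and overlapping matches were each counted. A match is a run of letters and does not show that a factor binds. RAN held 6 GC boxes within its 250 bases, and 3.17% of 15812 protein-coding promoters held at least as many. XPO1 held 2 CCAAT boxes, from -75 to -71 and from -32 to -28 relative to the start, followed by 2 GC boxes. NXF1 held a TATA box from -30 to -25 and 4 GC boxes. NUP133 held 2 GC boxes and NUP210 held 1. The first RCC1 start held an ETS-type motif on the other strand, and the second RCC1 start held none of the 8.

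Over the 45 members with a RefSeq promoter entry, the ETS-type motif occurred in 7, or 15.6%, against 6.17% of all protein-coding promoters. The NRF1 palindrome occurred in NUP107, NUP62 and NUP50, or 6.67% against 1.77%. The CCAAT box occurred in 46.7% against 36.4%, the GC box in 53.3% against 58.3% and the TATA box in 6.67% against 9.75%. TTTCGCGC occurred in 2 members (4.44% against 0.81%), TTTGGCGC in 1 (2.22% against 0.885%) and the YY1-type motif in 2 (4.44% against 1.33%). Median GC content was 63% in the members and 62.7% in all protein-coding promoters. In GC content the members were thus close to other promoters. In some other letters they were less so. Median GC skew, (G-C)/(G+C), over the whole searched window was -0.0575 in the members and 0.00807 in all protein-coding promoters. Over the first 50 bases from the start alone it was 0.0714 in both. The median number of CpG pairs was 27 against 22, and that of GGG runs 6 against 7. The 28 members whose start lay inside a senescent peak had a median GC content of 63.2%, and the 17 others 62.3%; over all promoters these medians were 65.3% and 59.7%.

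Nearly all members carried a peak within 1000 bp of an annotated gene end in senescent and in proliferating cells. In senescent cells 47 of 52 did, which is 90.4% (95% Wilson interval 79.4 to 95.8, counting error only), against 70.3% of all protein-coding genes. In quiescent cells 19 did, or 36.5% (24.8 to 50.1), against 27.7%. In proliferating cells 49 did, or 94.2% (84.4 to 98.0), against 75.9%. The order of the arrested states depended on list length: with 9736 peaks per list, 12 members had a gene-end peak in senescent cells and 19 in quiescent cells. With each list cut at its median score the quiescent share was 13.5%, against 15.4% of all genes. All 19 members with a quiescent gene-end peak had a senescent one, as did 98.8% of all genes with a quiescent one. All 19 also had a proliferating one, as did 5495 of the 5496 genes with a quiescent one. Having one in all 3 lists was true of 27.4% of all protein-coding genes. Of the 49 members with a proliferating gene-end peak, 46 had a senescent one, and 89.3% of all such genes did. IPO5 and NUP35 had a gene-end peak in none of the lists, as did 21.6% of all genes.

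A gene-end peak was present in proliferating and absent in senescent cells at RAN, RCC1 and KPNA7, which is 3 of 52 members and 8.12% of all protein-coding genes. The opposite held for NUP210 alone among members and for 2.49% of all genes. At the lists' full length the members' share was thus 5.77% in the first class and 1.92% in the second, near or below that of all genes. With the 9736 highest-scoring peaks of each list these shares were 32.7% and 13.5%, against 17.1% and 6.49% of all genes, and with each list cut at its median score 19.2% and 0%, against 15.8% and 3.08%. The relation of the members to all genes therefore turned with the number of peaks kept. No member had a quiescent gene-end peak without a senescent one, and 0.328% of all genes did. A peak anywhere at the locus, the gene with 1000 bp on each side, was found for 51 members in senescent cells, for 23 in quiescent cells and for all 52 in proliferating cells. Over all protein-coding genes these shares were 80.3%, 34.4% and 83.4%. RAN was the only member with no senescent peak.

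The share of the locus under peaks was lower in senescent than in proliferating cells for 48 of 52 members, against 72.5% of all protein-coding genes. It was higher for NUP210, IPO13, NUP188 and NUP50, which is 4 members, against 13.2% of all genes. A locus with no proliferating peak cannot be lower in senescent cells. All 52 members had such a peak, against 83.4% of all genes, so the shares of all genes include loci without one. The median over members was 2.11% in senescent, 0% in quiescent and 4.34% in proliferating cells. The medians over all genes were 3.20%, 0% and 5.90% in the same order of states. The members are long, with a median of 60711 bp against 24482 bp for all protein-coding genes, and a start peak of a given width covers less of a long locus. The ratio of mean coverage, senescent over proliferating, was 0.458 over members and 0.634 over all genes. For 23 members senescent coverage was at most 1/2 of proliferating coverage, against 30.7% of all genes, and for none was it 2 or more times as high, against 4.35%.

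**Figure D1:**
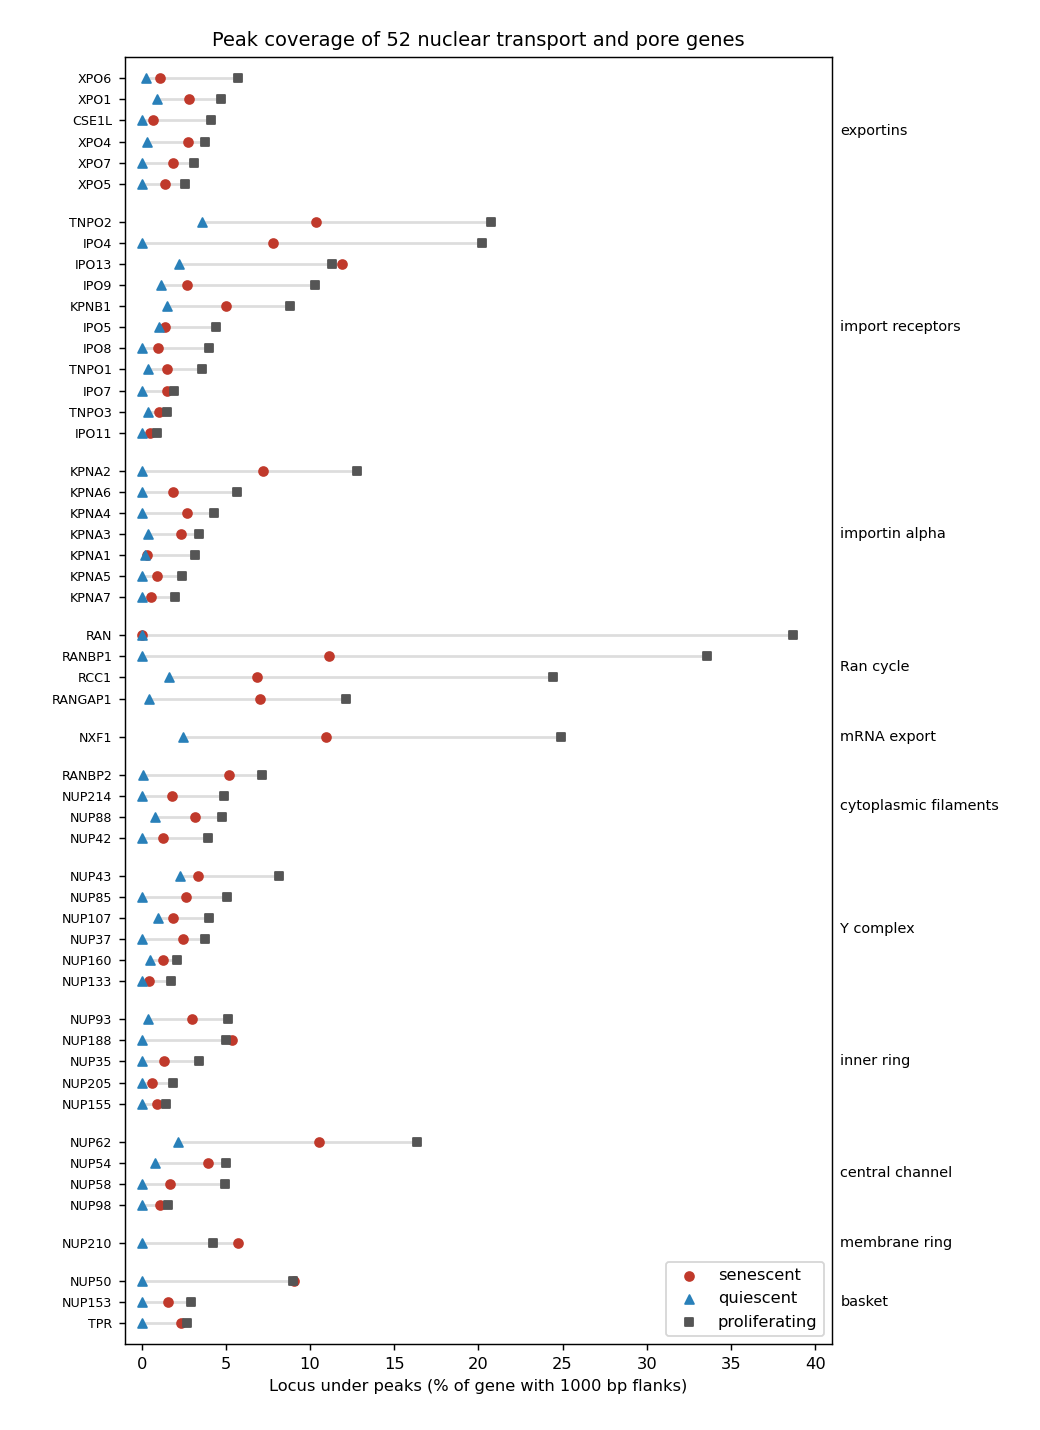
Percent of each member's locus (gene with 1000 bp flanks) under peaks in senescent (circles), quiescent (triangles) and proliferating (squares) IMR90 cells, 1 library each, grouped by role and joined by a grey line. RAN has 0% in senescent and quiescent cells and 38.7% in proliferating cells, and the senescent point lies right of the proliferating one for IPO13, NUP188, NUP210 and NUP50.

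Among the 4 genes of the RAN cycle were the 3 members whose coverage differed most, in percentage points, between senescent and proliferating cells. The median length of the 4 genes was 22100 bp, against 60711 bp for all members. RAN (5613 bp) and RANBP1 (11252 bp) are short, so that a peak fills more of the locus. RCC1 measures 32947 bp and RANGAP1 57591 bp. RAN had 0% of its locus under peaks in senescent cells, 0% in quiescent cells and 38.7% in proliferating cells. Its proliferating peaks were one of 3279 bp over the start, from -1705 to +1573 bp, and one of 475 bp beyond the 3′ end. The nearest senescent peak lay 7164 bp from the RAN start and the nearest quiescent one 838650 bp away. RANBP1, the partner of RANGAP1, had 11.1% in senescent, 0% in quiescent and 33.6% in proliferating cells. Its proliferating peak of 4462 bp at one gene end, shared with TRMT2A, stood where senescent cells had peaks of 859 and 333 bp. RANGAP1, the GTPase activator, had 7.01% in senescent, 0.451% in quiescent and 12.2% in proliferating cells. Its difference of 5.15 percentage points was below those of NXF1, IPO4, TNPO2, IPO9, NUP62 and KPNA2. All 4 genes were lowest in quiescent cells, tied with senescent cells for RAN, and highest in proliferating cells. Mean coverage of the RAN cycle genes was 0.230 times as high in senescent as in proliferating cells, below the ratio of 0.458 for all members, and over 4 genes.

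RCC1, the exchange factor for RAN, behaved differently at its 2 annotated starts. Its locus was 6.86% under peaks in senescent, 1.65% in quiescent and 24.4% in proliferating cells. At the first start, a stretch shared with one end of the lncRNA gene SNHG3, proliferating cells had a peak from -890 to +964 bp, and the nearest senescent peak was 7659 bp away. At the second start the window of 1000 bp on both sides was 82.2% under peaks in senescent, 28.8% in quiescent and 100% in proliferating cells. The second start was thus covered in all 3 states and the first only in proliferating cells. Proliferating cells had 8 peaks at the locus, against 2 in senescent and 1 in quiescent cells.

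Among the exportins, all 6 members had a gene-end peak in senescent and in proliferating cells, and 3 had one in quiescent cells. Over all protein-coding genes these shares were 70.3%, 75.9% and 27.7% in senescent, proliferating and quiescent cells. The same shares apply to the gene-end counts of each role below. The roles are small, and 6 of 6 has a Wilson interval of 61.0 to 100%. At XPO1 and CSE1L the highest-scoring senescent gene-end peak stood at percentile 48.8 of its list. XPO1 had 2.81% of its locus under peaks in senescent, 0.902% in quiescent and 4.73% in proliferating cells. Each state had 2 XPO1 peaks, one at or beside each of the starts that RefSeq places 256 and 1525 bp from the annotated end. The peak at the outer start measured 1038 bp in senescent, 410 bp in quiescent and 1763 bp in proliferating cells. That at the inner start measured 726, 156 and 1226 bp in senescent, quiescent and proliferating cells. Both were widest in proliferating and narrowest in quiescent cells. The quiescent peaks covered +25 to +434 bp and +1351 to +1506 bp, inside the senescent and proliferating peaks. Their scores stood at percentiles 90.7 and 92.9 of the quiescent list, and both proliferating peaks at percentile 99.1 of theirs. The senescent peak at the outer start stood at percentile 48.8 of its list, with a score of 18 below the list median of 19. That at the inner start stood at percentile 87.6. The senescent gene-end call of XPO1 rested on the outer one. These ranks describe each list by itself.

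XPO4, an exportin whose cargo includes a translation factor, had 2.73% in senescent, 0.33% in quiescent and 3.78% in proliferating cells. XPO6, which exports actin, had 1.11% in senescent, 0.239% in quiescent and 5.71% in proliferating cells. CSE1L, which returns importin alpha to the cytoplasm, had 0.703% in senescent, 0% in quiescent and 4.09% in proliferating cells. Its start peak of 2217 bp in proliferating cells stood against one of 370 bp in senescent cells that began 324 bp after the start. XPO5, the exporter of microRNA precursors, and XPO7 had 1.40% and 1.89% in senescent cells, no quiescent peak, and 2.57% and 3.12% in proliferating cells. All 6 exportins were highest in proliferating cells, and the ratio of their means, senescent over proliferating, was 0.443. Coverage was likewise lower in senescent than in proliferating cells for 48 of 52 members and 72.5% of all genes.

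Among the import receptors of the importin beta family, 10 of 11 had a gene-end peak in senescent cells, 5 in quiescent cells and 10 in proliferating cells. IPO13, which both imports and exports, had 11.9% of its locus under peaks in senescent, 2.23% in quiescent and 11.3% in proliferating cells, and was the highest member in senescent cells. TNPO2, a transportin for RNA-binding proteins, had 10.4% in senescent, 3.57% in quiescent and 20.7% in proliferating cells, and was the highest member in quiescent cells. Its quiescent peak lay beside its second start, 1673 bp into the gene. IPO4, a histone importer, had 7.78% in senescent, 0% in quiescent and 20.2% in proliferating cells. The 3 genes thus differed in order: IPO13 was about level in senescent and proliferating cells, while TNPO2 and IPO4 were lower in senescent cells.

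KPNB1, the importin beta that works with importin alpha, had 4.999% in senescent, 1.52% in quiescent and 8.82% in proliferating cells. IPO9, another histone importer, had 2.72% in senescent, 1.16% in quiescent and 10.3% in proliferating cells. TNPO1, the close relative of TNPO2, had 1.497%, 0.377% and 3.60% in senescent, quiescent and proliferating cells. All 3 were highest in proliferating cells. TNPO3, the importer of SR splicing factors, had 1.05% in senescent, 0.386% in quiescent and 1.48% in proliferating cells. IPO7, IPO8 and IPO11 had no quiescent peak and had 0.482 to 1.48% in senescent cells, against 0.94 to 3.99% in proliferating cells.

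IPO5, an importer of ribosomal proteins, had no peak within 1000 bp of its start or end. It had 1.41% in senescent, 1.05% in quiescent and 4.42% in proliferating cells. All 3 states had a peak about 22 kb into the gene, beginning 21935 bp after the start in senescent, 21951 bp in quiescent and 21793 bp in proliferating cells. These measured 779 bp in senescent, 765 bp in quiescent and 2482 bp in proliferating cells, and RefSeq gave no further IPO5 start in the table used. The quiescent peak stood at percentile 98.6 of its list.

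The 7 importin alpha genes encode the adaptors that bind classical import signals. In senescent cells 6 had a gene-end peak, in quiescent cells 2, and in proliferating cells all 7. KPNA2, the shortest of them, had 7.18% in senescent, 0% in quiescent and 12.8% in proliferating cells. KPNA1 had 0.322% in senescent, 0.17% in quiescent and 3.16% in proliferating cells, and its start peak measured 306 bp in senescent and 1624 bp in proliferating cells. KPNA3 had 2.32% in senescent, 0.382% in quiescent and 3.44% in proliferating cells. KPNA4, KPNA5 and KPNA6 had no quiescent peak and had 0.908 to 2.71% in senescent cells, against 2.397 to 5.65% in proliferating cells. All of them were highest in proliferating cells.

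KPNA7 had 0.526% in senescent, 0% in quiescent and 1.98% in proliferating cells. Its proliferating gene-end peak of 1146 bp was shared with SMURF1, and a senescent peak overlapped it but did not reach to within 1000 bp of KPNA7. Its call as absent in senescent cells therefore rested on the position of one peak edge.

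NXF1, the receptor for bulk mRNA export, had 10.9% of its locus under peaks in senescent, 2.46% in quiescent and 24.9% in proliferating cells. Proliferating cells had a peak of 3804 bp over the start, shared with STX5, and senescent and quiescent cells had no peak within 1000 bp of that start. The nearest senescent peak was 1295 bp away. At the 3′ end, which is shared with TMEM223, peaks measured 1674 bp in senescent, 376 bp in quiescent and 1664 bp in proliferating cells. NXF1 was thus counted as having a gene-end peak in all 3 states, by the 3′ end in senescent and quiescent cells and by both ends in proliferating cells.

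The Y complex, the scaffold of the outer pore rings, had gene-end peaks in all 6 measured members in senescent and in proliferating cells, and in 3 in quiescent cells. NUP43 had 3.35% in senescent, 2.30% in quiescent and 8.15% in proliferating cells. NUP107 had 1.89%, 0.978% and 3.97% in senescent, quiescent and proliferating cells, and its quiescent peak lay at the 3′ end, shared with SLC35E3. NUP160 had 1.24% in senescent, 0.469% in quiescent and 2.12% in proliferating cells. These 3 members were highest in proliferating and lowest in quiescent cells. NUP133 had 0.461% in senescent, 0% in quiescent and 1.72% in proliferating cells. Its only proliferating peak, of 1204 bp, lay over the start, whereas its only senescent peak, of 323 bp, lay at the 3′ end. NUP37 and NUP85 had no quiescent peak and had 2.44% and 2.66% in senescent cells, against 3.78% and 5.07% in proliferating cells.

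Of the inner ring, which holds the pore together around the channel, NUP93 alone had a quiescent peak. NUP93 had 2.99% in senescent, 0.392% in quiescent and 5.12% in proliferating cells. NUP188 had 5.37% in senescent, 0% in quiescent and 4.99% in proliferating cells, from 4 senescent and 3 proliferating peaks. NUP35 had 1.34%, 0% and 3.40% in senescent, quiescent and proliferating cells. It was counted without a gene-end peak because its RefSeq start lies 6929 bp inside the annotated end, and at that start senescent and proliferating cells both had a peak, of 619 and 1568 bp. NUP155 and NUP205 had 0.939% and 0.602% in senescent cells, against 1.45% and 1.86% in proliferating cells.

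In the central channel, whose phenylalanine-glycine repeats form the barrier, NUP62 had 10.5% in senescent, 2.17% in quiescent and 16.3% in proliferating cells. Its gene-end peaks were shared with ATF5 and IL4I1. NUP54, its partner, had 3.93% in senescent, 0.767% in quiescent and 5.02% in proliferating cells. NUP58 and NUP98 had no quiescent peak and had 1.66% and 1.10% in senescent cells, against 4.97% and 1.55% in proliferating cells. In the nuclear basket, NUP50 had 9.06%, NUP153 1.55% and TPR 2.36% in senescent cells, against 8.99%, 2.93% and 2.68% in proliferating cells. None of the 3 basket genes had a quiescent peak, and NUP50 and TPR were about level in senescent and proliferating cells.

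On the cytoplasmic side, where filaments receive export complexes, NUP88 had 3.20% in senescent, 0.804% in quiescent and 4.78% in proliferating cells. NUP214 and NUP42 had 1.82% and 1.24% in senescent cells, against 4.90% and 3.95% in proliferating cells. RANBP2, the large filament protein that binds RAN-GTP, had 5.19% in senescent, 0.0989% in quiescent and 7.14% in proliferating cells. The annotated RANBP2 span of 1122820 bp holds 5 other protein-coding genes, CCDC138, EDAR, SH3RF3, SEPTIN10 and SOWAHC, and accounted for 107 of the 214 senescent member peaks. In its first stretch, up to the next gene, RANBP2 had 3 peaks and 2.86% in senescent cells, no peak in quiescent cells, and 4 peaks and 4.96% in proliferating cells.

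NUP210, a nucleoporin that spans the nuclear membrane, had 5.73% of its locus under peaks in senescent, 0% in quiescent and 4.25% in proliferating cells. It had 15 senescent and 9 proliferating peaks, spread along the gene, and none within 1000 bp of the start in either state. The nearest senescent peak to the start was 5987 bp away and the nearest proliferating one 22955 bp. Its senescent gene-end peak lay at the 3′ end and stood at percentile 17.2 of the senescent list. The call of NUP210 as present in senescent and absent in proliferating cells rested on this low-scoring peak. NUP210 was the member with the largest gain of coverage, by 1.47 percentage points, followed by IPO13 with 0.611 and NUP188 with 0.373. The largest drops were at RAN, RANBP1 and RCC1, where coverage was 38.7, 22.4 and 17.5 percentage points lower in senescent than in proliferating cells. As a ratio of senescent over proliferating coverage, RAN was lowest with 0. The ratios of RCC1 (0.281) and RANBP1 (0.332) were above those of other members such as KPNA1 (0.102), CSE1L (0.172) and XPO6 (0.194).

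**Figure D2:**
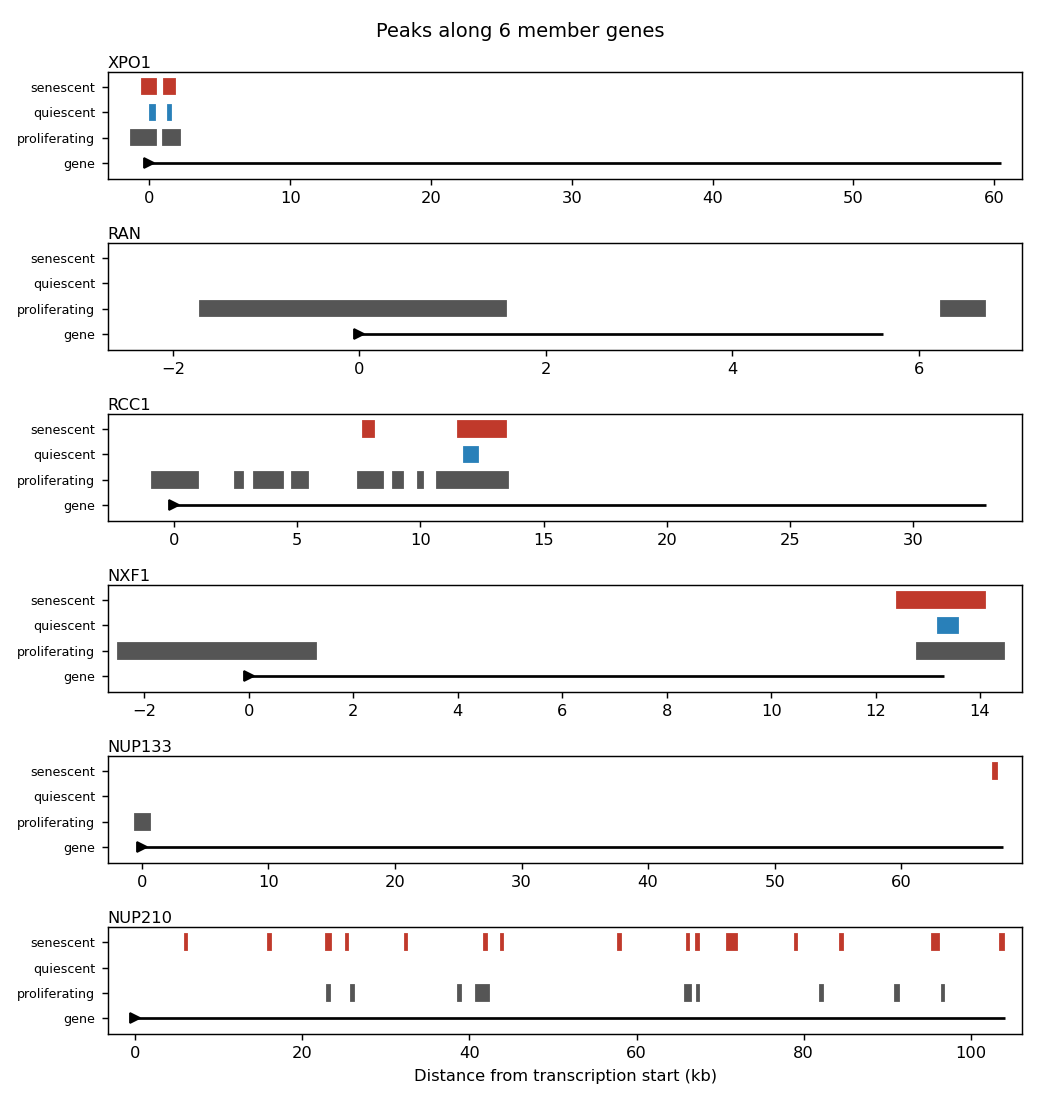
Peaks along XPO1, RAN, RCC1, NXF1, NUP133 and NUP210 in senescent, quiescent and proliferating cells, by distance in kb from the first transcription start; the black line is the annotated gene and the arrowhead its start. The starts of RAN, RCC1, NXF1 and NUP133 carry a peak in proliferating cells alone, and NUP210 has 15 senescent and 9 proliferating peaks with none at its start.

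The position of peaks around the start was measured for the 45 members with a RefSeq promoter entry, which gives strand, taking 1 start per gene. The start itself lay inside a peak for 28 members in senescent cells, or 62.2%, against 40.6% of 15812 protein-coding genes with an entry. In quiescent cells it did for NUP160, TNPO3 and NUP93, or 6.67%, against 10.5%. In proliferating cells it did for 43 members, or 95.6%, against 65.2%, and the 2 without were IPO5 and NUP210. Of the 43 starts inside a proliferating peak, 28 (65.1%) were inside a senescent one, and over all genes 59.7% were. The members were thus richer in start peaks than all genes in both lists, while the share kept in senescent cells differed less.

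Within 1000 bp of the start, a measure that does not depend on gene length, median coverage of the members was 45.03% in senescent and 82.5% in proliferating cells. Over all protein-coding genes it was 30.2% in senescent and 63.6% in proliferating cells. Coverage was lower in senescent cells at 43 of 45 member starts, against 66.8% of all starts, and higher at 0, against 8.65%. The 2 other starts, of IPO5 and NUP210, had 0% in both. A start with no proliferating peak in the window cannot be lower in senescent cells. Of all 15812 starts, 11807 had such a peak, against 43 of 45 member starts, so the shares of all starts include more starts without one. The ratio of means, senescent over proliferating, was 0.551 over members and 0.624 over all genes. The window was empty in senescent cells and not in proliferating cells at 4 of 45 member starts, or 8.89%, against 8.63% of all starts. These were RAN, RCC1, NUP133 and NXF1, which had 100%, 92.7%, 60.2% and 100% of the window covered in proliferating cells. Such starts were therefore about as frequent among members as among all genes.

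**Figure D3:**
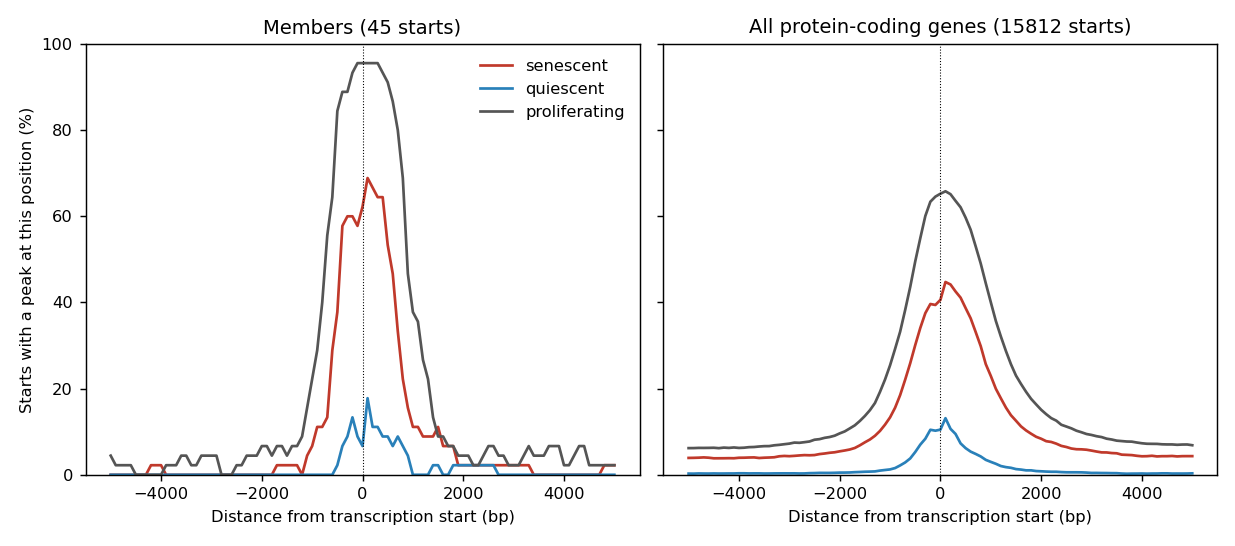
Percent of transcription starts with a peak at each distance in bp from the start (positive is into the gene), for 45 members (left) and 15812 protein-coding genes (right), in senescent, quiescent and proliferating cells. The members reach 68.9% in senescent cells and 17.8% in quiescent cells, both 100 bp after the start, and 95.6% in proliferating cells.

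Start peaks were narrower in senescent cells. In the 28 members with a peak over the start in both states, median width was 1107 bp in senescent and 1773 bp in proliferating cells. The senescent peak was the narrower one in 27 of 28 (96.4%), against 89.1% of all genes with both, and NUP50 was the exception with 2363 bp in senescent and 2347 bp in proliferating cells. The senescent peak lay wholly within the proliferating one in 20 of 28 (71.4%), against 70.4% of all genes. The median ratio of widths was 0.692 in members and 0.662 in all genes. In width and nesting the members were therefore near the background.

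Quiescent peaks mostly lay beside the start rather than over it. Of 15 members with a quiescent peak within 1000 bp of the start, 9 had it only after the start, against 34.7% of all such genes. These were XPO1, XPO4, XPO6, IPO9, TNPO1, KPNA1, KPNA3, NUP54 and NUP88. In 3 the peak covered the start (20%, against 38%), in IPO13 and RANGAP1 it lay only before it (against 21.5%), and NUP62 had peaks on both sides (against 5.8%). In the quiescent list 17.8% of member starts had a peak 100 bp after the start and 6.67% at the start itself; for all genes these shares were 13.1% and 10.5%. Among senescent peaks, RANBP2, NUP153, NUP205, NUP107 and CSE1L had one only after the start, or 5 of 39 members, against 17.2% of all such genes.

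Member peaks at gene ends overlapped those of another state more often than peaks inside genes did, and they were also wider. Leaving RANBP2 aside, members had 107 peaks in senescent, 24 in quiescent and 151 in proliferating cells. Of these, 60 senescent, 20 quiescent and 61 proliferating peaks lay at a gene end. Among proliferating peaks, 52 of 61 at gene ends (85.2%) and 22 of 90 inside genes (24.4%) overlapped a senescent peak. In the whole proliferating list 76.1% of peaks at protein-coding gene ends and 42.9% of those inside genes did. With RANBP2 included, 79 of 183 proliferating member peaks inside genes (43.2%) overlapped a senescent one, near the whole list. The lower share inside genes thus came with leaving RANBP2 out. Among senescent peaks, 55 of 60 at gene ends (91.7%) and 25 of 47 inside genes (53.2%) overlapped a proliferating one, against 89.7% and 62.6% in the whole senescent list. With RANBP2 included, 87 of 153 senescent member peaks inside genes did (56.9%). Median widths of members' peaks at gene ends and inside genes were 849 and 358 bp in senescent cells and 1664 and 465 bp in proliferating cells. A wider peak meets another one more readily, and the part of width in these shares was not tested. All 24 quiescent member peaks overlapped both a senescent and a proliferating peak, as did 94.1% and 99.4% of the whole quiescent list for senescent and proliferating peaks taken one at a time. A total of 14 members shared a gene-end peak with another protein-coding gene, so those peaks cannot be assigned to one gene.

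For other genes of nuclear transport, a list of 39 was examined that holds transport receptors outside the symbol rule, mRNA export factors, further nucleoporins and SUMO proteases of the pore. In senescent cells 37 of 39 had a gene-end peak (94.9%, against 70.3% of all protein-coding genes). In quiescent cells 19 did (48.7% against 27.7%) and in proliferating cells all 39 (100% against 75.9%). The members' shares were 90.4%, 36.5% and 94.2% in the same order of states. A share above that of all genes was thus not particular to the members. Coverage was lower in senescent than in proliferating cells for 35 (89.7%, against 72.5% of all genes) and higher for 4 (10.3% against 13.2%). Median coverage was 3.74% in senescent, 0.234% in quiescent and 6.37% in proliferating cells. NXT2, a cofactor of NXF1, had 0% in senescent and quiescent cells and 6.79% in proliferating cells. RANBP6, a relative of IPO5, had 0% in senescent and quiescent cells and 18.0% in proliferating cells. These were the 2 genes of the list with a gene-end peak in proliferating and not in senescent cells. DDX1, named with XPO1 in the study, had 2.70% in senescent, 1.62% in quiescent and 2.59% in proliferating cells. It was among the 4 genes with higher senescent coverage, with DDX19A, RANBP10 and SARNP. THOC6, a subunit of the THO complex, had the highest coverage, with 44.2% in senescent, 3.31% in quiescent and 62.9% in proliferating cells.

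Peak lists do not measure expression, so they cannot show cell identity. Of 8 fibroblast genes, COL1A1, COL1A2, COL3A1, VIM, THY1, PDGFRB, DCN and LUM, 4 had a gene-end peak in senescent, 2 in quiescent and 7 in proliferating cells. Of 7 genes of epithelial, endothelial and immune cells, 4 had one in senescent, 1 in quiescent and 4 in proliferating cells. Coverage of the fibroblast genes had a median of 12.2% (0 to 64.4%) in senescent, 0% (0 to 11.998%) in quiescent and 28.9% (4.49 to 97.2%) in proliferating cells. COL1A1 was the highest, and DCN and LUM were at 0% in senescent and quiescent cells. Coverage of the other genes had a median of 5.64% (0.373 to 28.2%) in senescent, 0% (0 to 11.1%) in quiescent and 8.48% (1.53 to 69.9%) in proliferating cells. SFTPC, an alveolar epithelial gene, was the highest of these and PTPRC, a leukocyte gene, the lowest in senescent and in proliferating cells. The lists overlapped in range in every state. The part of cell makeup in the members' results was not tested.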

How the data were processed

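MapR peaks of 3 RNase H-MNase libraries of IMR90 cells were used, 1 each of senescent, quiescent and proliferating cells, grouped by their labels. The authors' deposited lists give each peak's position and score; the scores are whole numbers from 10 up, of unstated scale, and ranked or selected peaks within a list only. The submitters' processing notes name the build GRCh38, MACS2 2.2.7.1, Bowtie2 2.4.5 and FastQC 0.11.9. For settings, read filters and any control library, the sources used here give nothing, and depth is unknown.

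Of 59792 entries in RefSeq's GRCh38 annotation, 58419 on placed chromosomes were used. Starts, strand and promoter letters came from RefSeq promoter entries (GRCh38.p14), found for 45 of 52 members. A peak counted as overlapping at 1 bp or more. Shares carry Wilson intervals at 95% confidence, which cover counting error only. Calculations used python 3.11.15, pandas 2.3.3 and statsmodels 0.14.6, and overlaps were checked on simulated intervals. With 1 library per state no p-value was computed. The members and gene lists were chosen with earlier results of these data known. XPO1, members with a gene-end peak in only one of the senescent and proliferating lists, members with a quiescent peak, the 5 highest per list and the 3 largest drops and gains were to be named; others were named after their values were seen. The alternatives were score and peak-number cuts, equal covered length, 500 and 3000 bp windows, the 5′ end alone, 200 bp of overlap, symbols with suffixes and, added after seeing the data, leaving out RANBP2.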

Additional observations from a re-analysis of the deposited data

How the results depend on the processing

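No paired analysis was possible because each state had 1 library and no test was made. Of 72 recomputed values, 60 stayed near the values reported and 12 moved. The ratio of mean coverage stayed below 1 throughout, and coverage was lower in senescent cells for more members than it was higher in each of them. When each list was cut at its median score, quiescent gene-end peaks were left at 7 members (13.5%, against 15.4% of all genes, so below them). A proliferating but no senescent one was found at 10 members (19.2% against 15.8%), the opposite at 0 (against 3.08%), and higher coverage in senescent cells at 2 (3.85% against 11.7%). With 9736 peaks per list, 12 members had a senescent gene-end peak (23.1% against 19.8% of all genes), 19 a quiescent one (36.5% against 27.7%) and 22 a proliferating one (42.3% against 30.4%), so that the order of senescent and quiescent cells was reversed. A proliferating without a senescent one was found at 17 (32.7% against 17.1%) and the opposite at 7 (13.5% against 6.49%). Coverage was lower in senescent cells for 27 (51.9% against 33.9%) and higher for 7 (13.5% against 12.3%). These cuts hold fewer peaks by construction. With 3000 bp windows 1 member had higher senescent coverage (1.92% against 13.0% of all genes). At the 5′ end alone 0 of 45 members had a senescent without a proliferating peak, against 2.14% of all genes. The ratio of mean coverage, senescent over proliferating, stayed between 0.376 and 0.547. The highest value came with the proliferating list at the covered length of the senescent list. There the ratio over all protein-coding genes was 0.834. Coverage was lower in senescent cells for 46 members (88.5% against 53.0% of all genes) and higher for 6 (11.5% against 30.0%). A proliferating gene-end peak without a senescent one was found at 3 members (5.77% against 4.05%). That share was above all genes here and below them at full list length. Depth is unknown, so no peak can be called absent rather than not detected.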
